A study of Mus musculus with 10 samples.

Results

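The 3 mouse superoxide dismutase genes (Sod1, Sod2 and Sod3), the gene for the copper chaperone of Sod1 (Ccs), the catalase gene (Cat) and 3 glutathione peroxidase genes (Gpx1, Gpx3 and Gpx4) were followed in female and male mouse embryonic fibroblasts (MEFs), connective tissue cells grown from embryos. These 8 genes were taken by symbol from the 52550 genes of the deposited table, and each symbol was found. They were picked as one enzyme group around Sod3, which earlier results on the same libraries had shown to be lower in females. The sex contrast of the 8 genes is therefore given as a description, with no test. Tests were kept for measures that the choice did not use. They cover the order of the levels, the share of intron reads and how Sod3 varied between libraries of one sex.

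The libraries comprised 5 from female and 5 from male C57BL/6 MEFs, all taken at embryonic day 14, labelled passage 3 and grown in serum-containing medium with no treatment named. RNA was depleted of ribosomal RNA and sequenced from strand-specific libraries. Nothing in the labels ties the 5 libraries of either sex to different embryos or culture dishes, so p-values reflect only how far these libraries scatter, which could be a technical spread. MEF cultures are not a pure cell type, and in bulk RNA fewer cells of a type cannot be told apart from less RNA per cell.

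Superoxide dismutases turn superoxide, a by-product of respiration and of NADPH oxidases, into oxygen and hydrogen peroxide. Sod1 uses copper and zinc in the cytosol and receives its copper from Ccs, Sod2 uses manganese in the mitochondrial matrix, and Sod3 is the secreted copper and zinc enzyme that binds heparan sulfate and matrix around fibroblasts and smooth muscle. The peroxide is then removed by catalase in peroxisomes and by the glutathione peroxidases, of which Gpx1 acts in cytosol and mitochondria, Gpx3 is secreted, and Gpx4 reduces lipid peroxides in membranes.

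The C-terminal tail that ties Sod3 to the matrix is visible in its coding sequence. The last 25 codons and the stop codon of Sod3 are shown because this end carries the basic stretch that binds heparan sulfate. They are from a GENCODE M21 transcript (GRCm38, plus strand, chromosome 5), and codons for arginine or lysine are in capitals.
Sod3: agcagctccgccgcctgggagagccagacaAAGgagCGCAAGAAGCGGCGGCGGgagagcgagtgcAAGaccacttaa
Of these 25 codons, 8 encoded arginine or lysine, against 27 of the 251 codons of the whole Sod3 coding sequence.

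The glutathione peroxidases described here carry selenocysteine in their active site, which is encoded by an in-frame TGA that otherwise means stop. That codon is shown in capitals with 15 coding bases on each side, from the longest coding sequence annotated for each gene in GENCODE M21, because it makes these 3 genes depend on the selenoprotein machinery.
Gpx1: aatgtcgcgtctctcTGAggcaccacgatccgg
Gpx3: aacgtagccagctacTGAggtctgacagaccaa
Gpx4: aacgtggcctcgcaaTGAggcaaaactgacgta
The codon was number 47 in Gpx1 (chr9:108339451-108339453, plus strand), 73 in Gpx3 (chr11:54907256-54907258, plus strand) and 129 in Gpx4 (chr10:80054737-80054739, plus strand), each position as annotated on GRCm38. The coding sequences of Sod1, Sod2, Sod3, Ccs and Cat held 0 in-frame TGA codons before the stop.

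All 8 genes lie on autosomes, on the mm10 coordinates of the deposited table. Sod1 spans chr16:90220742-90226322, Sod2 chr17:13007839-13018119 and Sod3 chr5:52363791-52371418, all on the plus strand. Ccs spans chr19:4825366-4839322 and Cat chr2:103453849-103485160 on the minus strand. Gpx1 spans chr9:108338903-108340343, Gpx3 chr11:54902453-54910377 and Gpx4 chr10:80047166-80056439 on the plus strand. No other gene of the table overlapped any of these spans.

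Libraries held between 30662616 and 45859721 reads assigned uniquely to genes. Of the 16602 genes with enough reads to test, 15 were called between the sexes by the quasi-likelihood test of edgeR at an adjusted p under 0.05, 7 higher in females and 8 lower, and 922 had an unadjusted p under 0.05. The labels were borne out by Xist, the noncoding RNA of the inactive X, at 21.3 CPM in females and 0.0223 CPM in males, and by Ddx3y, a Y-linked helicase gene, at 0.240 CPM in females and 59.5 CPM in males. CPM are unique gene reads scaled to a common library size with TMM factors (trimmed mean of M values, which evens out library composition). The fibroblast label fitted its markers, with the collagen gene Col1a1 at 6901 ± 859 CPM in females and 6788 ± 716 CPM in males (SD, n = 5 each). All 7 fibroblast markers were tested and none was called, with summed levels between 9292 and 13285 CPM in females and between 9036 and 12028 CPM in males. All 7 had positive log2 fold changes, female minus male, with a median of 0.17 and the largest for Thy1, at 0.31.

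Sod3, the secreted dismutase, was the one gene of the 8 in which the sexes separated. Its level was 6.77, 8.95, 5.51, 7.10 and 5.29 CPM in the 5 female libraries, against 12.4, 12.9, 15.1, 15.2 and 18.1 CPM in the 5 male libraries. The highest female library lay below the lowest male library, so the groups did not overlap. The means were 6.72 ± 1.47 CPM in females and 14.7 ± 2.28 CPM in males (SD, n = 5 each), a log2 fold change of -1.13 (SE 0.15), female minus male. Males were thus 2.20-fold higher. The unique reads behind these levels were 250, 349, 262, 253 and 202 in females and 435, 514, 472, 527 and 739 in males.

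Of the 8 genes, 8 were tested and 1 was called, Sod3, which is what it was chosen for. Over all tested genes 0.0904% were called, and 0.976% had libraries of the sexes that did not overlap, again with Sod3 as the 1 gene of the 8. Sod3 ranked 11 of 16602 genes by p. For scale, the last gene inside the call was Itih2, a hyaluronan-binding chain, with a log2 fold change of -1.18 (SE 0.19), and the first outside it was Col10a1, a cartilage collagen, with -1.38 (SE 0.25), of whose reads 14.2% were unique.

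**Figure D1:**
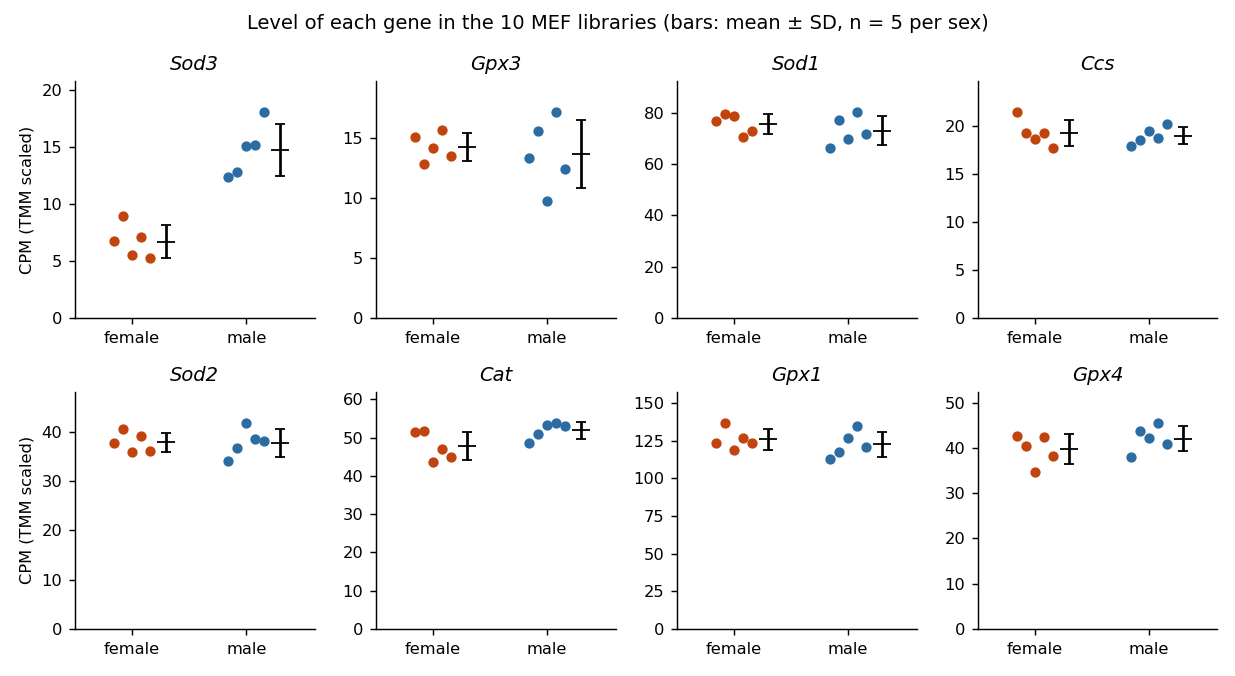
Level of each gene in CPM with TMM scaling (y axes start at 0 and differ between panels) in the 5 female (left) and 5 male (right) libraries; points are libraries in replicate order and bars are mean ± SD. Sod3 lies at 5.29 to 8.95 CPM in females and 12.4 to 18.1 CPM in males, while the sexes overlap in the other 7 genes.

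The intracellular dismutases had log2 fold changes near 0. Sod1 was at 76.7, 79.3, 78.6, 70.4 and 72.6 CPM in females, against 66.0, 77.0, 69.8, 80.2 and 71.8 CPM in males, with a log2 fold change of 0.05 (SE 0.06). The female range lay inside the male range. Sod2 was at 37.7, 40.5, 35.9, 39.0 and 36.1 CPM in females, against 34.0, 36.6, 41.8, 38.5 and 38.0 CPM in males, with a log2 fold change of 0.00 (SE 0.06). Here too all female libraries fell between the lowest and highest male libraries. Ccs, which loads copper into Sod1, was at 21.4, 19.2, 18.6, 19.2 and 17.7 CPM in females, against 17.9, 18.5, 19.5, 18.8 and 20.2 CPM in males, with a log2 fold change of 0.02 (SE 0.07). Its highest and its lowest library were both female.

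Among the peroxide-removing enzymes, Cat had the log2 fold change farthest from 0 after Sod3, at -0.12 (SE 0.06). Cat was at 51.5, 51.7, 43.7, 47.1 and 44.8 CPM in females, against 48.6, 50.9, 53.2, 53.9 and 52.9 CPM in males. Female replicates 1 and 2 lay among the males and the other 3 females below all males. Gpx1 was at 124, 137, 119, 127 and 123 CPM in females, against 113, 118, 127, 135 and 121 CPM in males, a log2 fold change of 0.04 (SE 0.06). Gpx4 was at 42.7, 40.4, 34.7, 42.5 and 38.2 CPM in females, against 38.1, 43.8, 42.1, 45.6 and 40.8 CPM in males, a log2 fold change of -0.08 (SE 0.07). The sexes overlapped in both genes.

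Gpx3, the other secreted enzyme of the group, had a log2 fold change near 0. It was at 15.03, 12.8, 14.2, 15.7 and 13.5 CPM in females, against 13.3, 15.6, 9.76, 17.1 and 12.4 CPM in males, with a log2 fold change of 0.06 (SE 0.13). Both the lowest and the highest library were male. Across the 8 genes, 5 log2 fold changes were positive and 3 negative with a median of 0.01, and the 7 genes other than Sod3 ranged from -0.12 to 0.06. Over all tested genes the median was 0.00 and the quartiles were -0.07 and 0.08.

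Sod3 and Gpx3 were also the genes whose libraries scattered most. The biological coefficient of variation that edgeR fitted, the spread between libraries of one sex beyond counting error, was 15.98% for Sod3 and 14.1% for Gpx3. It lay between 7.68% (Gpx1) and 8.73% (Gpx4) for the other 6 genes. The value of Sod3 was above that of 84.0% of the 1817 tested genes within 0.5 log2 CPM of its level, and that of Gpx3 above 83.2% of 1984 such genes. Ccs, at 8.45%, was above only 13.8% of 2160 genes of like level.

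Per length of exon, the secreted dismutase was the least abundant of the 8 transcripts and the cytosolic enzymes the most abundant. Levels between genes are given in FPKM, unique exon reads per kilobase of exon and scaled as CPM are, as means over 10 libraries. They ran from Gpx1 at 115 FPKM and Sod1 at 105 FPKM through Gpx4 (22.6), Cat (17.6), Ccs (11.5), Sod2 (9.63) and Gpx3 (7.32) to Sod3 at 2.83 FPKM. Each of the 7 neighbouring pairs in this order differed within libraries by a two-sided exact sign-flip test, with p adjusted over the 7 pairs of 0.00391 for Gpx1 over Sod1 and 0.00228 for each other pair. Gpx1 was above Sod1 in 9 of 10 libraries, and the upper gene of every other pair was above in 10 of 10. Sod3 FPKM was 1.77, 2.37, 1.46, 1.90 and 1.40 in females and 3.28, 3.37, 3.94, 3.97 and 4.79 in males, so even the highest male library was below the lowest Gpx3 library, at 5.15 FPKM. This order depends on the exon lengths of the gene models, 3738 bases for Sod3 and 1813 for Gpx3, which the test takes as fixed. Without length scaling, males averaged 14.7 CPM for Sod3 and 13.6 CPM for Gpx3, and females 6.72 CPM for Sod3 and 14.2 CPM for Gpx3.

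**Figure D2:**
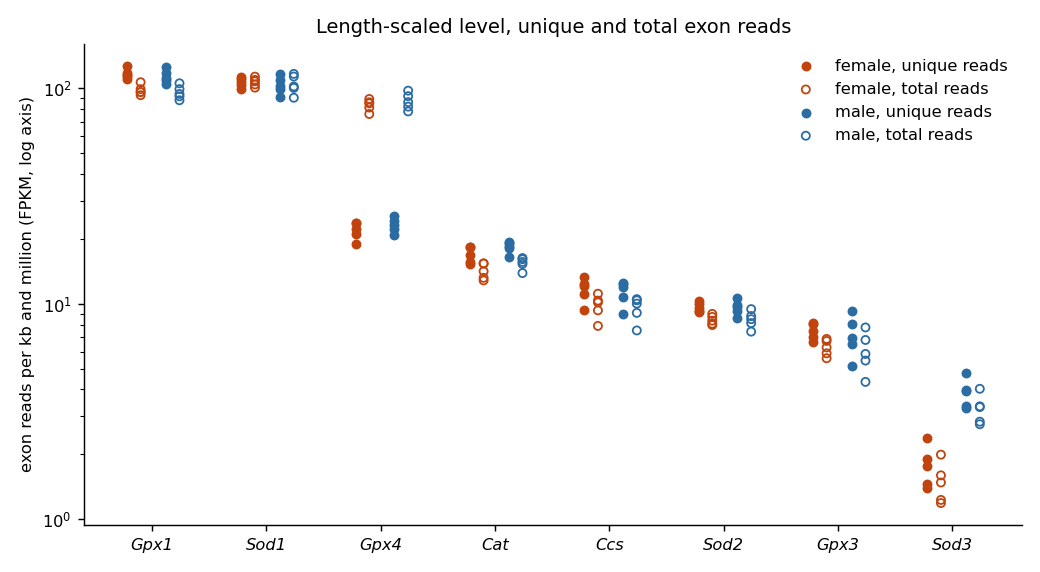
Exon reads per kilobase with CPM scaling (FPKM, log axis) for each gene in the 5 female and 5 male libraries, female left of male within a gene, with filled points for unique reads and open points for total reads. Unique levels descend from Gpx1 to Sod3, and Gpx4 stands apart by its open points, at a mean of 85.3 FPKM against 22.6 FPKM with unique reads.

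The order at the top depends on how reads with several matches are treated. Only 22.9% ± 0.68 of Gpx4 gene reads in females and 23.3% ± 0.47 in males were unique (SD, n = 5 each), so its unique level leaves out most of its reads and is uncertain. For Sod1 the unique share was 84.98% ± 0.61 in females and 84.5% ± 1.49 in males, and for Sod2 it was 96.5% ± 0.32 in females and 95.7% ± 0.92 in males. Sod3, Ccs, Cat, Gpx1 and Gpx3 had at least 99.02% unique reads in every library. With total exon reads Sod1 (106 FPKM) stood above Gpx1 (96.8) and Gpx4 (85.3), and the order of the other 5 genes was the same.

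Per length of exon, Sod1 made up most of the summed dismutase level in both sexes. It held 90.3% ± 0.71 of the summed FPKM of the 3 dismutases in females and 88.4% ± 1.10 in males (SD, n = 5 each). Sod2 held 8.18% ± 0.48 in females and 8.24% ± 0.75 in males. Sod3 held 1.505% ± 0.30 in females and 3.32% ± 0.51 in males, with no overlap, which restates its chosen difference on this scale. The Sod1 to Sod3 ratio was 62.0 ± 12.6 in females and 27.2 ± 4.20 in males. These shares and ratios rest on the exon lengths of the gene models, 646 bases for Sod1, 3824 for Sod2 and 3738 for Sod3. Without length scaling, the mean over all libraries was 74.3 CPM for Sod1, 37.8 CPM for Sod2 and 10.7 CPM for Sod3. Which transcript forms the cells used was not tested. Ccs stood at 10.9 ± 1.30 FPKM per 100 FPKM of Sod1 in females and 10.9 ± 1.13 in males.

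Among the 3 glutathione peroxidases, Gpx1 held 79.9% ± 1.30 of the summed FPKM in females and 78.9% ± 1.32 in males. The secreted Gpx3 held 5.12% ± 0.53 in females and 4.97% ± 0.93 in males. With total reads Gpx1 held 52.2% in females and 50.7% in males, and Gpx4 held 44.4% in females and 46.1% in males. Together the secreted enzymes Sod3 and Gpx3 came to 9.24 ± 0.67 FPKM in females and 11.04 ± 1.52 FPKM in males, with overlap between the sexes.

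Intron reads, which come largely from unspliced RNA in ribosome-depleted libraries, were few for Sod3. They numbered 6, 3, 2, 0 and 2 in the female libraries and 4, 12, 12, 14 and 8 in the male libraries. The means were 2.6 reads in females and 10.0 reads in males, with 1 male library inside the female range. At a mean under 10 reads over all libraries Sod3 was left out of the test of intron shares. Exon reads numbered 244, 346, 260, 253 and 200 in females and 431, 502, 460, 513 and 731 in males. In exon reads, as in gene reads, every female library lay below every male library. As a share of gene reads, intron reads were 1.00% ± 0.87 in females and 1.91% ± 0.84 in males (SD, n = 5 each).

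For the other 7 genes, the intron share of gene reads was not found to differ between the sexes. It was highest for Ccs, at 36.2% ± 6.29 in females and 37.3% ± 6.48 in males (SD, n = 5 each), and lowest for Gpx1, at 0.559% ± 0.141 in females and 0.637% ± 0.220 in males. Sod1 stood at 8.76% in females and 8.53% in males, Cat at 7.66% in females and 7.70% in males, Gpx3 at 5.01% in females and 4.76% in males, and Gpx4 at 4.98% in females and 4.88% in males. The Gpx4 share counts only unique reads, 22.9% of its gene reads in females and 23.3% in males, so its place among the genes is uncertain. Sod2 had the smallest p, with 2.49% ± 0.38 in females and 2.90% ± 0.70 in males (two-sided exact permutation p = 0.302). The adjusted p over the 7 genes was 0.984 for each, where the design allows an unadjusted p as small as 0.00794. Between 22.5% and 28.6% of all unique gene reads in a library were intron reads, so Ccs was the only one of the 8 genes above the library share in its mean.

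The introns of Ccs cover 12900 bases and its exons 1057. Per base, intron coverage of Ccs was 4.74% ± 1.26 of its exon coverage in females and 4.98% ± 1.46 in males. Over the other 7 genes the group means of this ratio, in unique reads, lay between 0.756% (Cat in females) and 1.87% (Sod3 in males). Its value for Gpx4 is uncertain, as most Gpx4 reads are not unique.

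**Figure D3:**
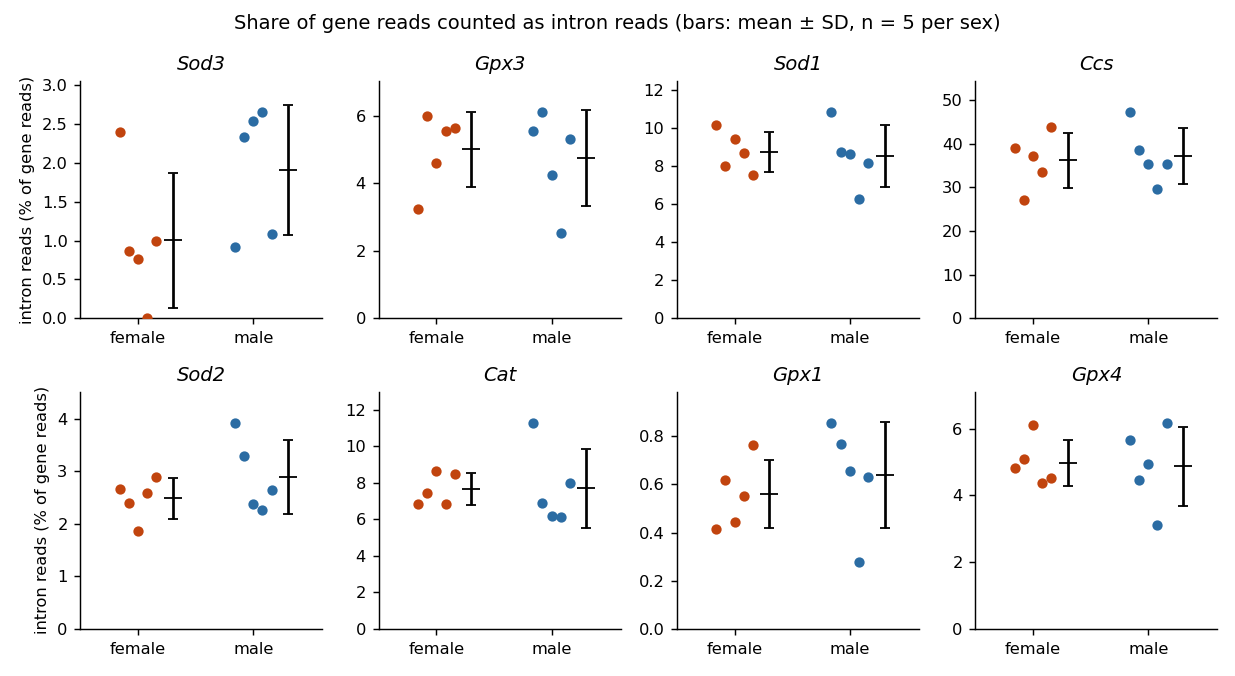
Intron reads as a percentage of unique gene reads for each gene (y axes start at 0 and differ between panels) in the 5 female (left) and 5 male (right) libraries; bars are mean ± SD. Ccs stands at 36.2% in females and 37.3% in males, Gpx1 below 1% in every library, and the sexes overlap in all 8 genes.

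Within a sex, libraries with more Sod3 tended to have more Cat, Sod2 and Gpx1, but the relations were at the edge of what 10 libraries can show. Each library was set against the mean of its sex on the scale of log2(CPM + 0.5), which removes the difference between the sexes. Pearson's r with Sod3 over 10 libraries was 0.81 for Cat, 0.73 for Sod2, 0.68 for Gpx1 and 0.61 for Ccs, and two-sided exact permutation within each sex gave adjusted p = 0.0593 for Cat and Sod2, 0.0857 for Gpx1 and 0.170 for Ccs. None of the 7 genes passed the 0.05 threshold by r. By Spearman's rho, Sod2 (0.79) and Gpx1 (0.77) passed with adjusted exact permutation p = 0.0440 each, while Cat (0.75) and Ccs (0.71) stood at 0.0757 each. Gpx4 (r = 0.46, rho = 0.50) and Sod1 (r = 0.21, rho = 0.16) were lower, with adjusted p of at least 0.253 by either measure in the exact permutation test.

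The secreted Gpx3 was the 1 gene of the 7 with a negative relation, at r = -0.19 and rho = -0.16 to Sod3 (exact permutation adjusted p = 0.598 and 0.636). With unique exon reads in place of gene reads, r was 0.67 for Cat, 0.54 for Sod2 and 0.53 for Gpx1. In that setting Ccs was highest, at 0.79, Sod1 was at -0.13, and adjusted exact permutation p was at least 0.117 throughout. The relations of Cat, Sod2 and Gpx1 in gene reads rested in part on 2 libraries. Without female replicates 2 and 5, the farthest from the median Sod3 deviation, r was 0.69 for Cat, 0.65 for Sod2, 0.57 for Gpx1 and 0.74 for Ccs, with unadjusted exact permutation p of 0.0681, 0.115, 0.210 and 0.0583, so none had a p under 0.05. Among the 21 pairs of the other 7 genes, 17 had a positive r, with a median of 0.45 and a range from -0.40 (Sod2 with Gpx3) to 0.80 (Sod2 with Gpx1). All points share their library and its scaling factor.

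**Figure D4:**
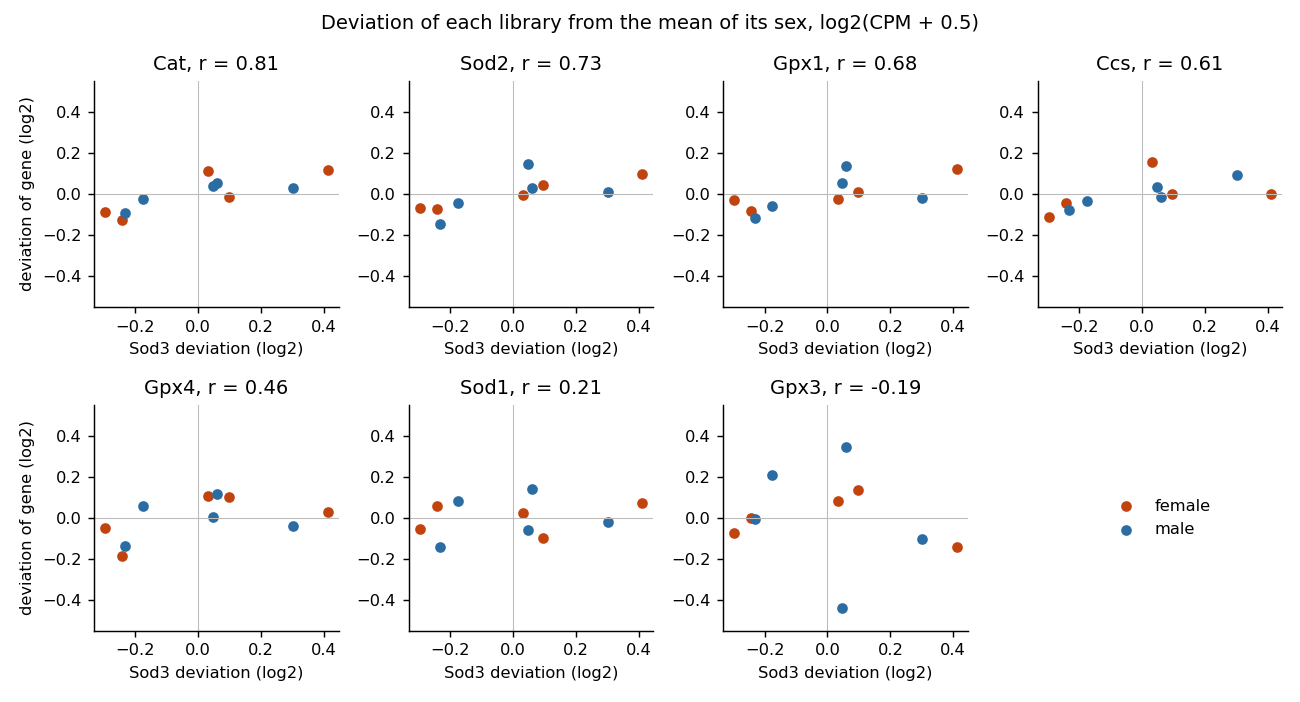
Deviation of each library from the mean of its sex, on the scale of log2(CPM + 0.5), for Sod3 (x axis) against each other gene (y axis), with female and male libraries in separate colours and Pearson's r above each panel. Points rise with Sod3 for Cat (r = 0.81) and Sod2 (0.73) and scatter without order for Gpx3 (-0.19).

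Across all 13377 genes with a mean of at least 1 CPM, the median r with Sod3 was 0.05 and the quartiles were -0.25 and 0.32. Of these, 62 genes had a larger r than Cat, 204 a larger r than Sod2 and 374 a larger r than Gpx1. The 5 most alike were Lefty1 (r = 0.96), a Nodal antagonist gene, Tmbim1 (0.93), Tlr3 (0.93), a sensor of double-stranded RNA, Prelp (0.92), a leucine-rich proteoglycan of the matrix, and Top3b (0.92), a topoisomerase gene. None of these 5 was called between the sexes, and their log2 fold changes lay between -0.29 (Prelp) and -0.02 (Top3b). The 5 most opposite were Kcnh1 (-0.90), Kcnk13 (-0.89), Cdh24 (-0.89), Milr1 (-0.88) and Dcc (-0.88), of which Kcnh1 and Kcnk13 encode potassium channels. They are the extremes of many relations over 10 libraries, and no p was computed for them.

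The genes around Sod3 on chromosome 5 were not called between the sexes. The nearest, Ccdc149, lies 3233 bases away on the opposite strand, at 3.72 ± 0.72 CPM in females and 4.11 ± 1.05 CPM in males (log2 fold change -0.14, SE 0.19). Dhx15, an RNA helicase gene 173277 bases away, was at 177 ± 2.43 CPM in females and 180 ± 5.07 CPM in males (log2 fold change -0.02). 9230114K14Rik, a noncoding transcript 84757 bases away, had a log2 fold change of -0.11. Lgi2, at 162099 bases, was higher in females on average, with 1.73 ± 0.52 CPM in females and 1.07 ± 0.40 CPM in males. It was not called (log2 fold change 0.68, edgeR unadjusted p = 0.0247, adjusted p = 0.791). Gm43176 had a log2 fold change of 0.41, with an unadjusted p of 0.0193 and an adjusted p of 0.757 in the same edgeR fit. Both went opposite to Sod3. Over all tested genes, 5.55% had an unadjusted edgeR p under 0.05. The other genes within 250 kb had too few reads to test.

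The rest of the pathway was followed in 90 genes, listed by role, of which 79 were tested. None was called between the sexes by edgeR, DESeq2 or limma-voom, 5 (6.33%) had an unadjusted edgeR p under 0.05, and 38 log2 fold changes were positive and 41 negative, with a median of -0.00. Of the tested genes 1, Txnrd2, had libraries that did not overlap, beside 0.976% of all genes.

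Among other enzymes of peroxide removal, 19 were tested, 8 with positive and 11 with negative log2 fold changes. The most abundant per length of exon were the thioredoxin gene Txn1, at a mean of 134 FPKM, and the peroxiredoxin gene Prdx1, at 80.0 FPKM. In CPM, Txn1 was at 156 ± 5.39 in females and 151 ± 12.9 in males, and Prdx1 at 243 ± 27.7 CPM in females and 264 ± 11.7 CPM in males. The smallest p values of the list belonged to Txnrd1 and Txnrd2, with opposite signs. Txnrd1, the cytosolic thioredoxin reductase, was at 307 ± 19.6 CPM in females and 362 ± 49.9 CPM in males (log2 fold change -0.24, edgeR adjusted p = 0.711). Txnrd2, the mitochondrial one, was at 8.41 ± 0.47 CPM in females and 7.41 ± 0.31 CPM in males (0.18, edgeR adjusted p = 0.894). A further reductase gene, Txnrd3, had a log2 fold change of -0.02.

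For glutathione synthesis, 8 genes were tested, 3 positive and 5 negative. Gss, the glutathione synthetase gene, was at 25.4 ± 1.87 CPM in females and 29.7 ± 3.05 CPM in males (log2 fold change -0.23, edgeR adjusted p = 0.671). Gclc, the catalytic subunit of the first step, had -0.14 and Chac1, which breaks glutathione down, had 0.09.

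Sources of superoxide numbered 13 tested genes, 6 positive and 7 negative. Rac1, a small GTPase of the oxidase complexes, was at 253 ± 16.8 CPM in females and 253 ± 10.3 CPM in males, and Cyba, the membrane subunit, had a log2 fold change of 0.08. Rac2, the blood cell counterpart, was at 1.23 ± 0.67 CPM in females and 0.536 ± 0.197 CPM in males (1.18, edgeR adjusted p = 0.583). Nox1, an oxidase gene, was at 0.702 ± 0.110 CPM in females and 0.975 ± 0.311 CPM in males (-0.46, edgeR adjusted p = 0.947). Summed macrophage markers lay between 37.4 and 92.9 CPM in females and between 45.0 and 69.0 CPM in males, and Lyz2 alone averaged 41.2 CPM in females and 36.5 CPM in males. All 6 macrophage markers had positive log2 fold changes, as Rac2 did, and 2 of them (Adgre1, 0.36, and Cd68, 0.38) had an unadjusted edgeR p under 0.05, with none called. Their part in the Rac2 values was not tested.

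Metal handling, on which the dismutases depend, held 14 tested genes, 4 positive and 10 negative. Atox1, the chaperone that hands copper to the secretory pathway, was at 40.2 ± 3.49 CPM in females and 42.2 ± 3.67 CPM in males. Mt2, a metallothionein gene, was at 40.1 ± 11.8 CPM in females and 45.7 ± 8.65 CPM in males. Cox11, a mitochondrial copper protein gene, had a log2 fold change of 0.19 and Slc39a14, a manganese and zinc importer gene, one of -0.08.

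The selenoprotein machinery behind the selenocysteine TGA codons held 10 tested genes, 7 positive and 3 negative, with a median log2 fold change of 0.05. Sephs2, which makes the selenium donor, was at 36.1 ± 1.23 CPM in females and 35.3 ± 2.38 CPM in males. Rpl30, a ribosomal protein gene whose product also binds selenocysteine insertion elements, had a log2 fold change of 0.07, with only 35.4% unique reads. Lrp2, an endocytic receptor gene for selenoprotein P, had 0.21 and Scly, the selenocysteine lyase gene, 0.19.

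Of genes for processing or binding Sod3, 9 were tested, 6 positive and 3 negative. Fbln5, an elastic fibre protein that binds Sod3, was at 447 ± 52.2 CPM in females and 389 ± 40.1 CPM in males (log2 fold change 0.20, edgeR adjusted p = 0.840). Furin, a convertase that trims the basic tail, was at 330 ± 16.7 CPM in females and 305 ± 33.8 CPM in males (0.11). Lrp1, an endocytic receptor, was at 2863 ± 278 CPM in females and 2934 ± 344 CPM in males (-0.04). Nitric oxide synthases and matrix oxidases held 6 tested genes, 4 positive and 2 negative, with Lox at 2269 ± 169 CPM in females and 2448 ± 189 CPM in males (-0.11), Loxl1 at 0.01 and Qsox1 at -0.07 on the log2 scale.

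**Figure D5:**
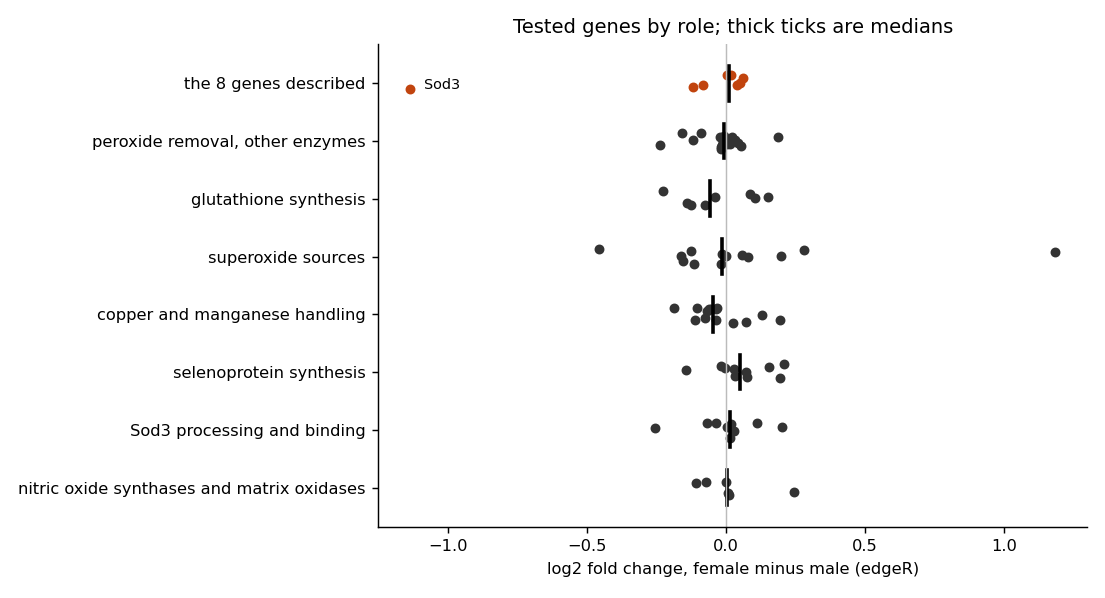
Log2 fold change, female minus male, of each tested gene by role (rows), with thick ticks for the median of a row. Sod3 stands at -1.13 among the 8 genes in the top row, and the medians of the pathway rows lie between -0.06 and 0.05.

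Markers of other cell types were read beside Sod3, since cartilage, smooth muscle and other cells can express it. Of 59 markers in 9 lists, 47 were tested, none was called by edgeR, and 11 (23.4%) had an unadjusted p under 0.05, against 5.55% of all tested genes. Libraries of the sexes did not overlap in 3 of the 47 markers (6.38%), against 0.976% of all tested genes. These were Col10a1 (log2 fold change -1.38), Msln (-0.77) and the glial marker S100b (-0.86), all lower in females on average. The lists were chosen with earlier results of these data known, so these shares are descriptions and not independent evidence. In the cartilage list 4 of 6 tested markers had negative log2 fold changes, with a median of -0.89, and 3 had an unadjusted p under 0.05. Col2a1, the main cartilage collagen, was at 11.2 ± 5.23 CPM in females and 29.5 ± 15.1 CPM in males, and Hapln1, a link protein of cartilage, at 0.802 ± 0.319 CPM in females and 2.28 ± 0.84 CPM in males (edgeR adjusted p = 0.107). Sox9, a cartilage regulator, and Col9a1, another cartilage collagen, went the other way. Sox9 was at 41.7 ± 3.94 CPM in females and 37.5 ± 3.47 CPM in males (log2 fold change 0.15). Col9a1 was at 0.361 ± 0.145 CPM in females and 0.226 ± 0.046 CPM in males (log2 fold change 0.68). The summed cartilage list lay between 44.8 and 68.4 CPM in females and between 50.6 and 91.5 CPM in males, and its part in the Sod3 difference was not tested.

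Smooth muscle and pericyte markers summed to between 3710 and 4870 CPM in females and between 3562 and 5422 CPM in males, with 3 positive and 5 negative log2 fold changes. In the epithelial and mesothelial list 3 tested markers were positive and 3 negative, with a median log2 fold change of 0.11. Msln was at 6.60 ± 0.95 CPM in females and 11.3 ± 4.09 CPM in males (edgeR adjusted p = 0.513), while Krt8 (0.84), Krt18 (0.29) and Wt1 (0.32) had positive log2 fold changes. That list summed to between 69.5 and 100.4 CPM in females and between 73.0 and 128 CPM in males. Endothelial markers summed to between 102 and 155 CPM in females and between 86.8 and 112 CPM in males. Of the 6 endothelial markers, 5 had positive log2 fold changes and 1 a negative one. Flt1, at 0.54, had an unadjusted edgeR p of 0.0180, and Kdr went the other way, at -0.36. Neural and glial markers summed to at most 19.6 CPM, adipocyte markers to at most 4.99 CPM and liver and blood markers to at most 8.95 CPM in any library, and the haemoglobin genes Hba-a1 and Hbb-bt had 0 reads. The part of these lists in the Sod3 difference was not tested either.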

How the data were processed

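The authors deposited 1 table of whole-number read counts per gene and library, not normalized, per the file headers, with unique and total reads split into gene, exon, intron and junction reads and with exon lengths and positions. The build was mm10, per the submitters' processing notes; how reads were aligned and counted is not given in the sources used here. Another 80 per-library columns in the table stayed out of every step. The 8 genes and all lists were chosen with earlier results of these data known.

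Unique gene reads were fitted with edgeR 4.0.16 in R 4.3.3 (filterByExpr, minimum count 10, TMM, robust quasi-likelihood fit, sex as the only term, two-sided, Benjamini-Hochberg over 16602 genes, call at 0.05). Single ratios were tested by exact permutation of libraries (252 splits), levels by sign flips (1024) and correlations within sexes (14400 pairings). FPKM are unique exon reads per exon length and TMM-scaled gene reads. The code was tested on simulated data. Named genes are the 8, the 2 most abundant and the 2 with the smallest p per pathway list, neighbours within 250 kb of Sod3 and the 5 most alike and most opposite to it. Markers, Txnrd3, Itih2, Xist and Ddx3y were named after their values were seen. Sequences came from GENCODE M21, and 1 coding stretch is not reported here. Alternatives were no or a stricter filter, other scaling, DESeq2 1.42.0, limma-voom 3.58.1 and the replicate block. Further settings were total reads, unique exon reads, another pseudocount and leaving out each library. The libraries carry no molecular identifiers, so read counts are not counts of molecules.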

Additional observations from a re-analysis of the deposited data

How the results depend on the processing

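Sod3 was called in 19 of 19 alternative fits, with log2 fold changes from -1.26 to -1.05, and in none of them was another of the 8 genes called. These fits reuse the libraries in which Sod3 was picked, so they show how its value moves with processing and are no further support. The 15 calls over all genes became 43 with the replicate block, 30 with no filter, 70 with DESeq2 and 36 without male replicate 1, and ranged from 12 to 36 when each library was left out; the cause was not tested. The number of genes correlated with Sod3 within sexes by r was 0 of 7, and ranged from 0 to 3 on leaving out a library, with 2 without female replicate 1 (Ccs and Cat), 1 without male replicate 3 (Sod2) and 3 without male replicate 5 (Sod2, Cat and Gpx1). Same-numbered libraries deviated together with r of 0.13, 0.14, 0.22, 0.06 and 0.34, and 3 of 5 female libraries correlated best with their own number, a hint of pairing from the data. The numbers were not taken as pairs because the labels name nothing shared and 1 of the 5 values was not above the 0.1 required of every pair. The count of 7 neighbouring level differences and of 0 differences in intron share was the same in every setting run. With total exon reads the order at the top changed, with Sod1 above Gpx1 in 10 of 10 libraries. Paired intron shares cannot reach a p below 0.0625. In the unpaired settings, a single gene could not pass after adjustment, so the 0 says little about any one gene. With total reads, mean FPKM moved beyond 1 SD for Sod2 (8.43), Ccs (9.63), Cat (14.8), Gpx1 (96.8), Gpx3 (6.15) and Gpx4 (85.3). Sod3 was also lower (2.38 FPKM, against 2.83 with unique reads), within its wider SD, which spans both sexes. Total levels are scaled by total gene reads, which exceed unique gene reads in every library. Sod3, Ccs, Cat, Gpx1 and Gpx3, with almost only unique reads, are thus lower on this scale though their own reads hardly change. Depth limits the Sod3 intron and junction reads most.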

Other observations

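Reads across exon junctions were set against exon reads after the data had been seen. For Sod2 the junction share averaged 24.9% ± 0.58 in females against 26.9% ± 1.06 in males (SD, n = 5 each), with every female library (24.4% to 25.9%) below every male library (26.0% to 28.7%), although the Sod2 level itself did not separate the sexes. The two-sided exact permutation p was 0.00794, the smallest that 5 against 5 libraries can give. It did not pass after adjustment over the 8 genes (exact permutation, adjusted p = 0.0635). A single gene could not pass this adjustment even with full separation of the sexes, so the adjusted p cannot decide whether Sod2 differed. The other 7 genes had adjusted p of at least 0.270. Sod3 had 10, 7, 4, 1 and 0 junction reads in females and 10, 16, 16, 15 and 25 in males, which is 1.61% ± 1.62 of its exon reads in females and 3.07% ± 0.47 in males, the lowest share of the 8 genes. The gene model of Sod3 has 2 exons, against 5 to 18 in the other 7 genes, so junction shares cannot be compared directly between genes.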
